A study of Mus musculus with 2 samples.

Results

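Transcription factors listed together for the monocyte and granulocyte lineages were read in 2 pools of sorted mouse cells. The set holds 10 genes: Cebpa, Cebpb, Cebpd, Cebpe, Gfi1, Runx1, Myb, Nfe2, Fli1 and Tal1. They were chosen by name, through the gene name printed in the array files or the current symbol of the RefSeq transcript given there, and 11 probes matched them, among 27238 named genes on the array. All 10 were measured, of 15668 genes measured in all, and all 11 probes were well above background in both pools on both arrays, so no filter on dim signals removed or favoured a member. The first pool, called the colon pool here, held CX3CR1high CD11b+ CD11c+ cells of the large intestinal lamina propria of CX3CR1gfp/+ mice, which carry green fluorescent protein in place of an allele of the fractalkine receptor gene Cx3cr1. The second, called the blood pool, held Ly6c+ CD11b+ blood monocytes of C57BL/6J mice. For the colon pool the series' design states n = 10, for the blood pool n = 6, and whether mice or samples are meant is not stated; no age, sex or treatment is labelled. The pools differed at once in cell type, tissue, strain and way of isolation, whose effects cannot be told apart.

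Both pools were hybridised together to 2 two-colour arrays with the dyes exchanged, colon in red (Cy5) on array 1 and in green (Cy3) on array 2. The arrays repeat 1 comparison of the same pools and count as 1 replicate, so no p-value was computed and the number of arrays limits the precision. Each ratio below is log2(colon / blood), given as the mean of the arrays ± the SD of their 2 values, which covers technical error alone. A call of higher or lower required 2-fold or more on array 1 and again, with the same sign, on array 2, and a signal of the brighter pool that the scanner software flagged as above background both times.

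These factors act in sequence and in pairs during blood formation. C/EBP proteins are basic leucine zipper factors: C/EBP alpha commits progenitors to the granulocyte and monocyte lines, C/EBP epsilon drives late granulocyte maturation, and C/EBP beta and delta are inducible by inflammatory signals and active in mature myeloid cells. Runx1 is the DNA-binding subunit of core-binding factor. Myb maintains dividing progenitors, and Gfi1 is a zinc finger repressor that favours granulocytes over monocytes. Fli1 and Tal1 belong to a group of blood stem cell and megakaryocyte factors, and Nfe2 is the p45 subunit of a factor that pairs with small Maf proteins and is needed for platelet production. Blood monocytes that enter the gut wall mature into resident macrophages.

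Each measurement rests on a probe of 60 bases, and stretches of 30 bases are shown here for the genes on which the results turn: Nfe2, the one gene called; Cebpb, past 2-fold on 1 array; both Runx1 probes, which lie on different sides of 2-fold in their mean; and Cebpe and Gfi1, whose calls depend on how the ratios are computed. Capitals mark AATAAA or ATTAAA, the letters of the poly(A) signal near the end of many mRNAs, searched on the strand shown alone.
Nfe2: gaaccaaaatggaggctacagattgagctg
Cebpb: tccgtttcgagcATTAAAgtgaagacattt
Cebpe: attctgtggctgAATAAActgcactgttac
Gfi1: gtgagggttgtagacgttcctaaatcttct
Runx1, probe 1: caggagggcccttggaggccaccaggaaga
Runx1, probe 2: tgtgcatcgtgtcactgtaaatgtaatggt
One of both motifs was found in 3 of the 11 member probes and in 16.7% of all 39424 probes. The labelling was primed with oligo-dT. The longest run that a member probe shared with a probe of another gene was 13 to 17 bases.

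On mouse build mm9, as the files give it, the whole Nfe2 probe lies at chr15:103078838-103078897 on the minus strand. Those of Cebpb and Cebpe lie at chr2:167515828-167515887 (plus strand) and chr14:55329200-55329259 (minus strand). The Gfi1 probe lies at chr5:108145719-108145778 on the minus strand. Runx1 probe 1, named for transcript variant 2, lies at chr16:92605785-92605844, and probe 2, named for transcript variant 4, at chr16:92604413-92604472, both on the minus strand with their starts 1372 bases apart. The remaining probes lie at chr7:35906517-35906576 (Cebpa, plus strand), chr16:15888459-15888518 (Cebpd, plus), chr10:20844736-20844795 (Myb, minus), chr9:32229857-32229916 (Fli1, minus) and chr4:114744219-114744278 (Tal1, plus). An annotation of exons on mm9 was not used here.

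Nfe2 was the only member called, and it was lower in the colon pool. Its mean spot signal in the blood pool was 6260 on array 1 and 11980 on array 2, against 441 and 167 in the colon pool, over a local background of 39 to 45. The blood signals lay far above the colon signals whichever dye each pool carried. The log2 ratio was -4.30 on array 1 and -4.08 on array 2, with a mean of -4.19 ± 0.15 (SD, 2 arrays), which is 18.2-fold lower. Of the 15668 measured genes, 9 had a lower ratio. In pooled cells, fewer cells that express a gene and less RNA per cell cannot be told apart. The ratio kept its call and direction under all 13 alternatives tried, with values from -4.86 to -4.08.

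**Figure D1:**
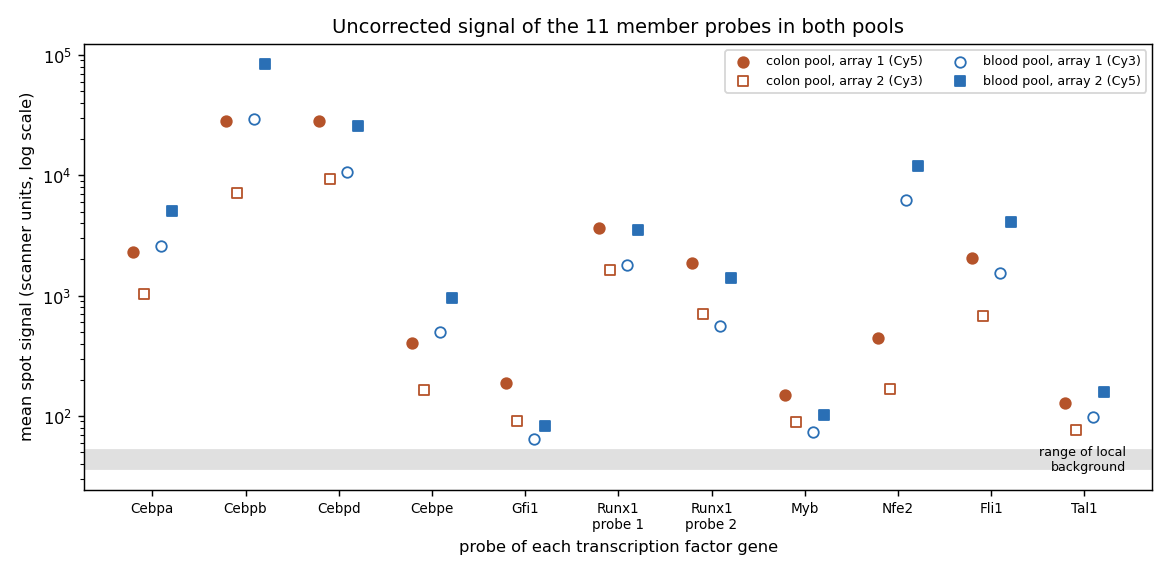
Mean spot signal (scanner units, log scale) of the 11 member probes, with the colon pool in brown and the blood pool in blue, circles for array 1, squares for array 2, filled marks for Cy5 and open marks for Cy3. The grey band is the range of local background at these probes, 36 to 52. For Nfe2 both blood signals (6260 and 11980) stand above both colon signals (441 and 167), while Gfi1, Myb and Tal1 lie close to the background.

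Of the 10 members 0 were called higher and 1 was called lower, a share of 10.0%, against 18.7% of all measured genes called in either direction, 14.2% higher and 4.46% lower. At 1.5-fold 5 of the 10 members passed (2 higher and 3 lower), a larger share than the 33.3% of all measured genes (3493 higher and 1725 lower). With 10 members each gene is 10.0% of the set, and the difference between these shares was not tested. The median ratio of the members was -0.22, and 0.06 for all measured genes. The other 9 members lay within 2-fold on the mean of both arrays, 4 above 0 and 5 below. Each of the 10 had the same sign on both arrays, though not under every processing. Under median centring the arrays differed in sign for Cebpd (1.14 and -1.11) and Runx1 (0.775 and -0.741). So did they for Fli1 (0.179 and -2.25) and Tal1 (0.135 and -0.523).

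**Figure D2:**
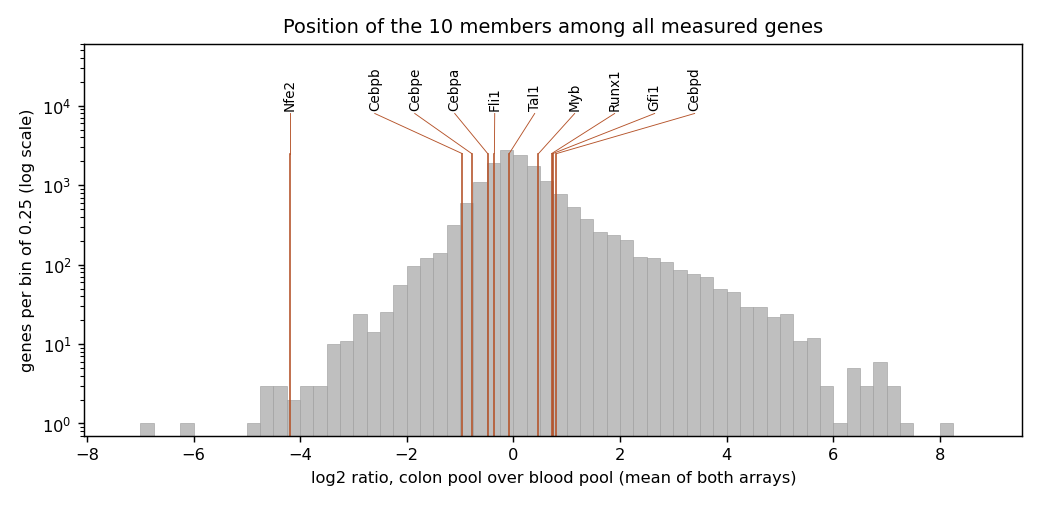
Number of measured genes (log scale) per bin of 0.25 in the log2 ratio (colon over blood), with the 10 members marked by brown lines. Nfe2 at -4.19 stands in the far left tail, and the other 9 members lie between -0.96 and 0.81, in the bulk of the distribution.

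None of the 4 C/EBP genes was called in either direction. Cebpb gave bright signals in both pools, 28276 (colon) and 29526 (blood) on array 1 and 7059 (colon) and 83741 (blood) on array 2. Its log2 ratio was -0.70 on array 1 and -1.22 on array 2, past 2-fold on array 2 alone, with a mean of -0.96 ± 0.37 (SD, 2 arrays). Cebpb was therefore not called, and with array 2 alone it would be. Cebpe, the late granulocyte factor, had log2 ratios of -0.78 on both arrays (mean -0.78 ± 0.00), from signals of 407 and 165 in the colon pool and 496 and 954 in the blood pool. The ratios of the scanner software for Cebpe were -1.23 and -1.25, which passes 2-fold on both arrays. By those ratios 33.5% of all measured genes were called, 20.2% higher and 13.3% lower.

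Cebpa, the factor of lineage commitment, read -0.70 on array 1 and -0.26 on array 2 (mean -0.48 ± 0.32). Its signals were 2283 and 1033 in the colon pool and 2581 and 5024 in the blood pool. Cebpd, an acute-phase factor, read 0.78 and 0.83 (mean 0.81 ± 0.03, 1.75-fold). Under median centring it read 1.14 on array 1 and -1.11 on array 2, so its direction is not settled there. Its signals were 28278 and 9364 in the colon pool and 10746 and 25604 in the blood pool. The ratios of Cebpd and Cebpe each agreed between the arrays to within 0.05, and those of the other 2 C/EBP genes differed between the arrays by 0.45 (Cebpa) and 0.52 (Cebpb). In the median measured gene the arrays differed by 0.15, and 95% of measured genes stayed within 0.48.

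Runx1 was read by 2 probes. Probe 1, the brighter, gave its value: 0.50 on array 1 and 0.94 on array 2, with a mean of 0.72 ± 0.31. Probe 2 read 1.22 and 0.89, with a mean of 1.05 ± 0.23. Signals of probe 1 were 3660 and 1647 in the colon pool and 1789 and 3489 in the blood pool. Both probes were above 0 on both arrays, and neither passed 2-fold on both. The probes differed by less than the sum of their SDs, so the data do not separate the transcript variants for which they are named.

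Gfi1, Myb and Tal1 were dim, and the offset added to every signal compresses their ratios. Gfi1 gave 189 and 90.1 in the colon pool and 64.5 and 82.4 in the blood pool, over a local background of 40 to 49. Its ratio was 0.86 on array 1 and 0.62 on array 2 (mean 0.74 ± 0.17), and with the ratios of the scanner software it was 1.93 and 1.33, which is a call. A smaller offset of 16 gave it 1.22 and 0.93 and no call, while 22.7% of all measured genes were then called, 17.2% higher and 5.48% lower. Myb, with signals of 149 and 89.1 in the colon pool and 73.7 and 101.8 in the blood pool, read 0.43 and 0.51 (mean 0.47 ± 0.06), and no alternative called it. Tal1 read -0.11 and -0.05 (mean -0.08 ± 0.05), the ratio nearest to 0, but -0.66 with the ratios of the scanner software. Its signals were 129 and 76.7 in the colon pool and 97.9 and 159 in the blood pool. Fli1, an ETS factor of megakaryocytes and endothelium, read -0.09 and -0.62 (mean -0.36 ± 0.38), and its gap of 0.54 between the arrays was the widest of the members. Its signals were 2069 and 678 in the colon pool and 1532 and 4123 in the blood pool.

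In the order of the ratios, Nfe2 lay 3.23 below the next gene, Cebpb, where the SDs of both sum to 0.52. Cebpb, Cebpe, Cebpa, Fli1 and Tal1 followed, each closer to its neighbour than the sum of their SDs. Tal1 and Myb lay 0.55 apart, with a sum of SDs of 0.10. From Myb through Runx1 and Gfi1 to Cebpd no neighbours differed beyond that sum. The order above Nfe2 depends on the processing. Under median centring Runx1 and Cebpd, both at 0.02, lay between Tal1 (-0.19) and Myb (0.43). With the ratios of the scanner software Gfi1 (1.63) lay above Cebpd (0.79), and Cebpe (-1.24) below Cebpb (-0.971). By the same ratios Tal1 (-0.655) lay below Cebpa (-0.625) and Fli1 (-0.523).

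**Figure D3:**
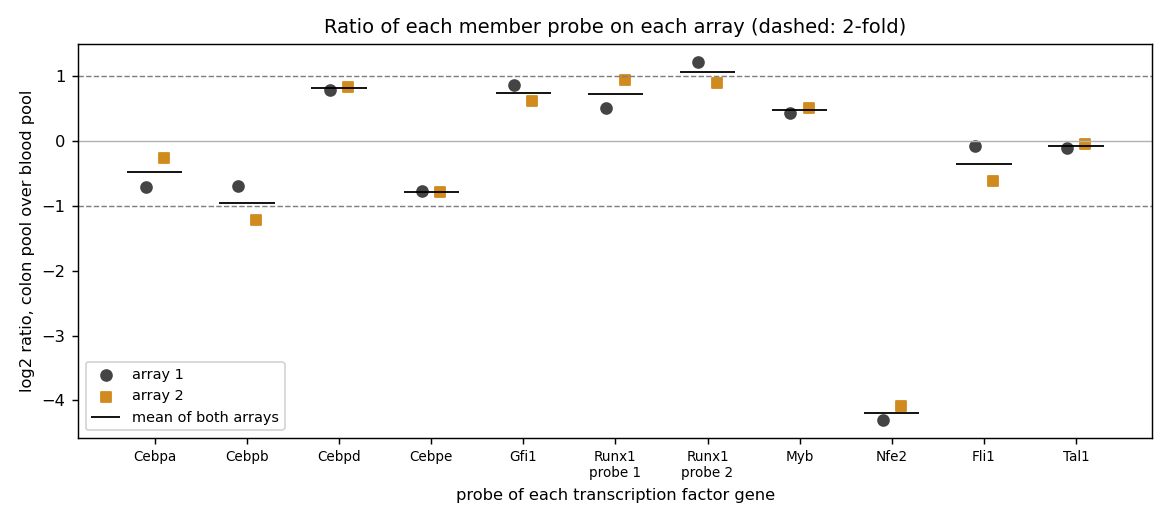
Log2 ratio (colon over blood) for each of the 11 member probes on array 1 (grey circles) and array 2 (orange squares), with a line at the mean and dashed lines at 2-fold. The Nfe2 probe alone lies beyond 2-fold on both arrays; Cebpb and Runx1 probe 2 cross it on 1 array each.

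Genes related to the members by family or by partnership were read in 7 lists with 54 genes. Of these, 50 were measured, 9 were called higher and 3 lower. For comparison, 14.2% of all measured genes were called higher and 4.46% lower. Whether the 7 lists, together or singly, differ from these shares was not tested. In the list of Nfe2 relatives and small Maf partners the median was 0.70, and of 8 measured genes 2 were called higher and 0 lower. Maff, a small Maf partner, was higher at 3.34 ± 0.02 (10.1-fold), and Nfe2l2, which encodes the oxidative stress factor NRF2, at 2.08 ± 0.12 (4.23-fold, not called under median centring). Nfe2 and these 2 genes thus had ratios of opposite sign. Of 10 genes of the Tal1 complex and of blood stem cell factors 0 were higher and 2 lower (median -0.18): Lyl1, a close relative of Tal1 (-2.04 ± 0.10, 4.11-fold lower), and the homeobox gene Hhex (-1.89 ± 0.03, 3.71-fold lower).

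In the list of the RUNX family and core-binding partners 2 of 6 were higher and 1 lower (median -0.17). Runx3 was higher at 1.90 ± 0.01, with 1.21 from its other probe and no call under median centring. The corepressor gene Runx1t1 was at least 2.46-fold higher, its blood signal being not well above background; such a bound sets the bright pool against the dimmest signal called above background, or the dim probe's own signal where that is higher. Cbfa2t3, which encodes the corepressor ETO2, was lower at -2.11 ± 0.13, but its other probes read -0.63 and -0.49. Of 9 measured ETS relatives of Fli1 3 were higher and 0 lower (median 0.07). These were Ets1 (2.64 ± 0.12), Ets2 (1.73 ± 0.07) and Spib (1.12 ± 0.06), of which Ets2 and Spib lost the call under median centring. Ets1 and Spib are also expressed in lymphocytes, whose markers were higher in the same pool, and the part of such cells in these ratios was not tested.

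Of 4 measured genes of the Myb family and its coactivators 2 were higher and 0 lower (median 1.26): the coactivator gene Crebbp (2.50 ± 0.02) and Myc (1.46 ± 0.11), a driver of growth, neither of them called under median centring. None of 6 C/EBP relatives was called (median 0.10), the brightest being Trib1 (0.04 ± 0.14), whose product promotes the breakdown of C/EBP alpha, and Atf4 (0.77 ± 0.56), the factor of the integrated stress response, which passed 2-fold on array 1. None of 7 measured Gfi1 partners and corepressors was called (median -0.00), the brightest being the histone deacetylase gene Hdac1 (-0.23 ± 0.17) and the histone methyltransferase gene Ehmt2 (-0.00 ± 0.21).

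Of all measured genes 18.7% were called, and of 19 measured genes known to depend on C/EBP factors in myeloid cells 36.8%. The calls were lower for 6 genes and higher for 1, and the median of the list was -0.81. The list was chosen with earlier results of these data known, and the difference between these shares was not tested. The lowest were the chitinase-like gene Chil3 (-6.98 ± 0.19, 126-fold lower), the collagenase gene Mmp8 (-4.99 ± 0.30, 31.8-fold) and both calprotectin genes, S100a8 (-3.63 ± 0.08, 12.4-fold) and S100a9 (-3.28 ± 0.09, 9.68-fold). Cd14, the lipopolysaccharide co-receptor gene, was higher at 2.80 ± 0.14, without a call under median centring. The C/EBP genes themselves lay between -0.96 and 0.81. Neutrophil markers were lower for 5 and higher for 0 of 13 measured genes. Of the 14 listed, 11 are also in the list of genes that depend on C/EBP, 4 of them among the 5 that were lower. The summed normalised signal of the neutrophil list was 37360 and 33430 in the colon pool and 117700 and 96160 in the blood pool. Its brightest genes in the blood pool were S100a9, S100a8 and Csf3r (0.30 ± 0.26, not called). The dim markers Ly6g (0.11 ± 0.19), Camp (-0.33 ± 0.02), Ltf (0.00 ± 0.09) and Mpo (-0.27 ± 0.07) were not called. Neither were Elane (0.47 ± 0.13), Mmp9 (0.96 ± 0.26) and Retnlg (-0.01 ± 0.28), the last of them bright in both pools. Besides S100a8, S100a9 and Mmp8, the lower markers were Cxcr2 (-1.98 ± 0.05) and Prtn3 (-1.38 ± 0.09). The granule gene Ngp was not well above background in either pool, and the part of neutrophil RNA in these values was not tested.

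Platelet genes known to depend on Nfe2 went both ways, with 3 lower, 2 higher and a median of -0.57 over 9 measured genes. The share called was 55.6%, against 18.7% of all measured genes. This list too was chosen with earlier results of these data known, and the difference between these shares was not tested. Gp9, a subunit of the von Willebrand factor receptor, was not well above background in the colon pool and at least 5.00-fold lower. The integrin gene Itga2b (-1.62 ± 0.03, with a colon signal well above background on 1 array alone) and the platelet chemokine gene Ppbp (-1.54 ± 0.10) were lower too. Pf4, which encodes platelet factor 4, was higher at 5.53 ± 0.30 (46.3-fold), as was the thromboxane synthase gene Tbxas1 (1.73 ± 0.01, without a call under median centring). In the wider list of platelet and megakaryocyte markers 5 of 12 were lower and 1, Pf4, higher. All 12 were above background on both arrays in the blood pool, against 6 in the colon pool. There Gp9, Gp1ba, Gp6 and Tubb1 were above background on neither array and Itga2b and Gp1bb on 1 array each (named after their values were seen). Their summed normalised signal was 108000 and 147300 in the colon pool and 6825 and 8700 in the blood pool, and without Pf4, a comparison added after the data were seen, 1994 and 2250 against 4848 and 5068. The part of platelet RNA in the Nfe2 ratio was not tested. Of 5 measured erythroid markers 1, the receptor gene Epor, was higher (2.33 ± 0.10) and 0 were lower, and Klf1 was not well above background in either pool. Their summed signal was 12030 and 13460 in the colon pool and 17770 and 16940 in the blood pool.

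Factors of macrophage identity, a list also chosen with earlier results of these data known, were read for contrast. Of 20 measured genes 5 were called higher (25.0%, against 14.2% of all measured genes) and 0 lower (4.46% of all), with a median of 0.55. Under median centring 1 was higher and 0 lower, with an offset of 16 there were 5 and 2, and with the ratios of the scanner software 6 and 2. Among those higher were Spic (4.57 ± 0.14), a factor of iron-recycling macrophages, the liver X receptor gene Nr1h3 (2.47 ± 0.12) and Maf (1.93 ± 0.05, with 0.40 from its other probe). Of these, Nr1h3 and Maf lost their call under median centring. The 10 lineage factors had 0 higher and 1 lower by the same rule, and the difference between both lists was not tested.

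**Figure D4:**
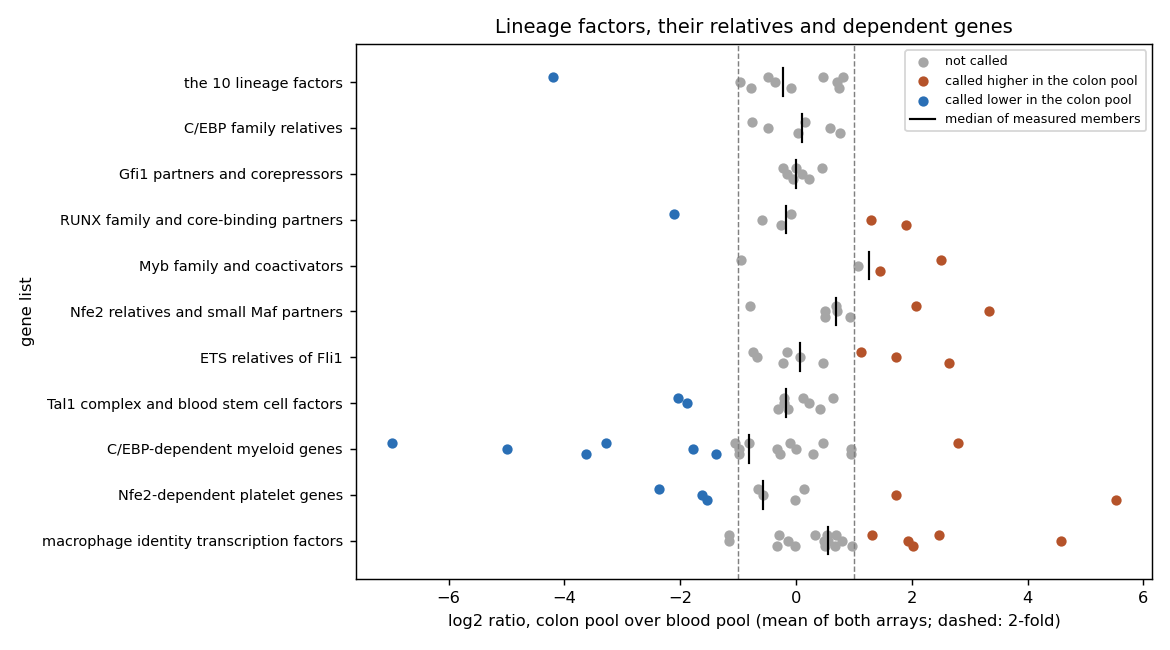
Log2 ratios, colon over blood (x axis, mean of both arrays) for the 10 lineage factors and 10 lists of relatives, dependent genes and macrophage factors (y axis). Each point is a measured gene, brown where called higher, blue where called lower and grey where not called; black bars are medians and dashed lines mark 2-fold. Nfe2 is the isolated point at -4.19 in the top row, and the widest spread is that of the genes that depend on C/EBP factors, from -6.98 to 2.80.

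The labelled cells were checked by their markers. Itgax, which encodes CD11c, was higher in the colon pool (3.35 ± 0.08), Ly6c1 was lower (-3.28 ± 0.09), and Itgam (-0.46 ± 0.33) and Cx3cr1 (0.10 ± 0.25) were not called. Ly6c2, also listed as a sort and monocyte gene, had no probe named for it. Monocyte markers were lower for 7 of 7 measured genes and resident macrophage markers higher for 6 of 9 and lower for 0. The macrophage markers not called were Csf1r (0.95 ± 0.34), Cd68 (0.80 ± 0.01) and Fcgr1, which was below 0 (-0.62 ± 0.10). Markers of cells outside the sort were also higher in the colon pool, for 8 of 8 fibroblast, 6 of 8 epithelial, 6 of 7 B and plasma cell, 5 of 7 T cell, 3 of 10 endothelial and 3 of 6 mast cell and basophil genes, with 0 lower in each. Of all measured genes 14.2% were called higher and 4.46% lower. Of 7 blood progenitor genes 2 were higher, Kit (at least 5.68-fold) and Cd34 (4.57 ± 0.12, with 0.72 from its other probe), and 1, Flt3, was lower (2.84-fold). Kit is also counted in the mast cell and basophil list. The fibroblast list had the largest median ratio of these lists, 6.56, and its summed normalised signal was 111000 and 119200 in the colon pool against 1509 and 1439 in the blood pool. That of the endothelial list was 5338 and 5193 in the colon pool against 2084 and 1823 in the blood pool, where Cdh5, Tek, Emcn, Ptprb and Tie1 were not well above background. That of the progenitor list was 12800 and 11670 against 4221 and 4084, with Mecom not well above background in either pool. Its brightest genes in the colon pool were Cd34 and Ly6a (0.51 ± 0.08, not called). The part of progenitor RNA in the progenitor sum and in the Cd34 ratio was not tested. The T cell list summed to 4558 and 3799 against 1052 and 731.8, and the B and plasma cell list to 34650 and 35690 against 2420 and 2465, with Pax5 not well above background in either pool. Fli1 and Tal1 are also expressed in endothelium, Runx1 in lymphocytes, Myb and Gfi1 in lymphoid and progenitor cells, and the part of such cells in the ratios of these members was not tested.

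**Figure D5:**
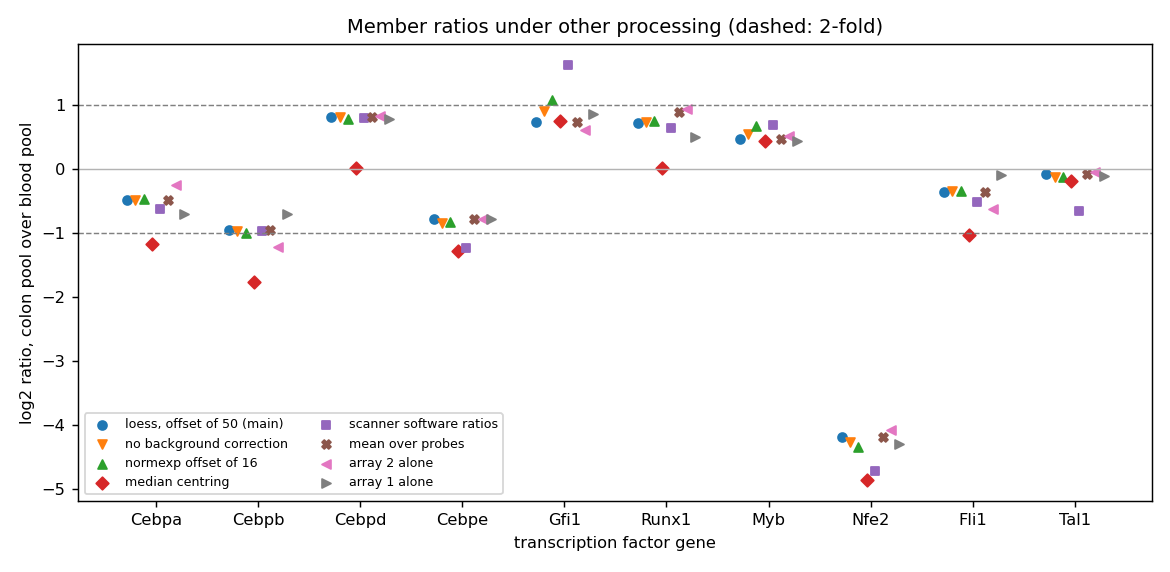
Log2 ratio (colon over blood) for the 10 members under the main setting and 7 other ways of processing, with dashed lines at 2-fold. Nfe2 stays between -4.86 and -4.08. Gfi1 passes 2-fold with the scanner software's ratios (1.63) and Cebpe does so with them (-1.24). Points beyond 2-fold in the mean but not on both arrays are those of Gfi1 with an offset of 16 (1.08), of Cebpb with that offset, just past the line, and of Cebpa (-1.18), Cebpb (-1.77), Cebpe (-1.29) and Fli1 (-1.04) under median centring; Cebpb at -1.22 is array 2 alone.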

How the data were processed

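Per the labels' protocols, 25 ng of total RNA of each pool was amplified from an oligo-dT primer and labelled with Cy3 or Cy5. Per the file headers, the deposited scanner files give intensities of each spot and its surroundings on a linear scale, not normalised. They add a log10 ratio (red over green) that the software had detrended and dye-normalised, also per the file headers. The deposited value table holds the same log10 ratios by spot number, with the sign turned on array 2, so it runs colon over blood; its column medians are 0 and its centring is the software's. The file headers name Agilent Feature Extraction 10.7.3.1, the submitters' processing notes 10.5.1.1.

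Intensities were corrected by normexp with an offset of 50 and normalised by loess within each array, giving weight 0 to controls and outliers (limma 3.58.1, R 4.3.3). Array 2 was sign-turned so that both run colon over blood. Of several probes of a gene the brightest gave its value. A gene was measured when the software flagged 1 pool above background on array 1 and array 2, a flag carried by 52.9% to 59.6% of spots per pool and dye. No spot was saturated. Gene symbols came from RefSeq names of GRCm38.p6 for 29529 of 43020 spots and from the file for 8751. Normalised signals summed over lists are after loess and Aquantile scaling.

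Simulated arrays of this comparison (43020 spots, colon over blood) returned 99 of 100 bright spots changed by 1.5 on the log2 scale. Of those changed by 3, 100 of 100 were returned, with 0 false calls. The simulation gave every spot the same noise, held no dye effect and left out the background flag. It therefore does not bear on dim genes such as Gfi1, Myb and Tal1, or on ratios near 2-fold. The members, the 10 related lists and the 13 marker lists were chosen with earlier results of these data known. The rule for named genes took all members, sort genes, up to 4 called genes per direction of each related list (or its 2 brightest measured genes), and of each marker list the 2 brightest called genes per direction and those not above background; most markers are given as counts. Some genes that the rule covers are not reported here.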

Additional observations from a re-analysis of the deposited data

How the results depend on the processing

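No member, and none of the 48 called genes among the 70 covered by the rule for names, changed to a call of the opposite direction under any of the 11 alternatives that leave the fold threshold as it was. Nfe2 was the only member called without background correction, with an offset of 16, under median centring, with Aquantile scaling (which leaves ratios as they are), with the mean over probes, with array 1 alone, without a filter on dim probes, with both pools required above background and at 4-fold. With the ratios of the scanner software, and with the deposited value table that holds them, 1 member was higher (Gfi1) and 2 were lower (Cebpe and Nfe2), 2081 of all measured genes were lower, and 21 genes of the related lists were lower; the cause was not tested. These ratios carry no offset. Calls rose in both directions, the higher ones from 2224 to 3167 and the lower ones from 699, so that the share of calls that were higher was 60.3% in place of 76.1%. Median centring gave 1138 genes higher in all, 5 higher in the related lists and 67.1% of calls higher; 13 named genes lost their call. Over all measured genes the median ratio was 0.06, moving to -0.28 under median centring and -0.12 with the software's ratios. Relative to that median, Cebpd and Runx1 were 0.30 each under median centring. There the arrays differed widely for bright genes, with -0.32 and -3.23 for Cebpb.

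Leaving out 1 array in turn gave 0 members higher each time and 1 to 2 lower, Cebpb joining Nfe2 on array 2. Over all measured genes calls rose too, to 2398 higher and 847 lower on array 2 alone (20.7% called) and 2641 and 859 on array 1 alone (22.3%), against 18.7% with both arrays. At 1.5-fold 2 members were higher (Cebpd and Gfi1) and 3 lower (Cebpb, Cebpe and Nfe2), 5 of 10 members against 33.3% of all measured genes, with 3493 genes higher and 1725 lower in all and 27 and 22 in the related lists. At 4-fold these were 954 and 130 in all and 8 and 6 in the related lists, against 17 and 12 at 2-fold. Requiring both pools above background took the calls of Runx1t1, Gp9, Itga2b and Kit. No paired analysis was possible because both arrays measure the same pair of pools. Signals near background limit Gfi1, Myb and Tal1 most.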
